A study of Mus musculus with 18 samples.

Results

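The comparison described here sets the spleens of mice on a high fat diet (HFD) that also received AOS-FMT against the spleens of control mice, across all genes with a mean of 1 FPKM or more in either group. FPKM is a transcript level scaled to transcript length and to library size. Of 19326 rows in the table, 12721 met this rule, and 12969 met it in at least 1 of the study's 6 groups. Of the members, 167 had their higher group mean between 1 and 1.1 FPKM, and a further 167 rows lay just outside, between 0.9 and 0.997 FPKM.

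The RNA came from whole spleens, taken from 10-week-old animals of the outbred ICR stock. AOS is taken to mean alginate oligosaccharide, made by cutting the seaweed polymer alginate into short chains, and FMT faecal microbiota transplantation. The control group is labelled only as control. The HFD+AOS-FMT group had the high fat diet and a transplant labelled with AOS at 10 mg/kg, taken here as faecal material from donors given that dose. The HFD group had the diet alone and the HFD+control-FMT group had the diet with a transplant labelled control. The other 2 groups, AOS at 10 mg/kg without and with the diet, enter the shared estimate of spread, and their values are given for a few genes. Each group had 3 libraries. The labels give no composition or length of the diet, no transplant schedule, no sex and no animal, cage or batch for any library. P-values therefore measure the spread between these libraries, which may be technical. Control and HFD+AOS-FMT differ in both diet and transplant, and the contributions of the 2 cannot be told apart in this comparison.

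The spleen filters blood and houses immune cells. Its white pulp holds B and T lymphocytes around arterioles. Its red pulp holds macrophages that clear old red cells, and in mice it also makes red cells, platelets and granulocytes. In adult mice this blood cell formation can grow or shrink with demand, and obesity is known to alter the balance of lymphoid and myeloid cells in lymphoid organs. In bulk RNA of a whole spleen, fewer cells of a type and less RNA per cell cannot be told apart, and this holds for every cell type list below.

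Some libraries stood apart before any comparison. Column totals of the 6 libraries ran from 673428 to 831448 FPKM, and no read counts are known for these libraries. Haemoglobin transcripts took 24.1% ± 2.45 of all FPKM in HFD+AOS-FMT and 27.7% ± 6.43 in controls (mean ± SD, n = 3 each). This difference was within the spread (exact two-sided permutation p = 0.4, the smallest possible being 0.1). The controls varied more among themselves than the HFD+AOS-FMT libraries did: the median gene had an SD of 0.185 on the log2(FPKM + 1) scale in controls and 0.0912 in HFD+AOS-FMT. Control replicate 1 held far more neutrophil and platelet RNA than the other two, control replicate 2 held testis RNA, and the libraries of both groups held pancreas RNA in widely differing amounts. The values are given with the results they touch.

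No gene differed between HFD+AOS-FMT and control at an adjusted p of 0.05. In limma with Benjamini-Hochberg adjustment over 12969 genes, 0 of 12721 members passed (0%) and the smallest adjusted p was 0.209. At an unadjusted p under 0.05 there were 1494 members (11.7%), 838 of them higher (6.59%) and 656 lower (5.16%) in HFD+AOS-FMT. The 3 libraries of each group did not overlap for 910 members that lay higher in HFD+AOS-FMT (7.15%) and 746 that lay lower (5.86%). The median log2 difference over all members was 0.02, and 56.4% of them lay above 0.

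The count of 0 changed most when a single control was left out. Without control replicate 3, 283 genes (2.22%) were called higher and 296 (2.33%) lower, whereas leaving out either of the other controls, or any HFD+AOS-FMT library, gave 0. Without HFD replicate 3, which enters this comparison only through the shared estimate of spread, 2 genes passed, *Tspan10* and *Kap*. In 7023 of 12721 genes control replicate 3 was the control that lay furthest toward the HFD+AOS-FMT side, against 2856 genes for control replicate 1 and 2890 for control replicate 2. The values below are therefore given as levels in each library and not as changes.

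**Figure D1:**
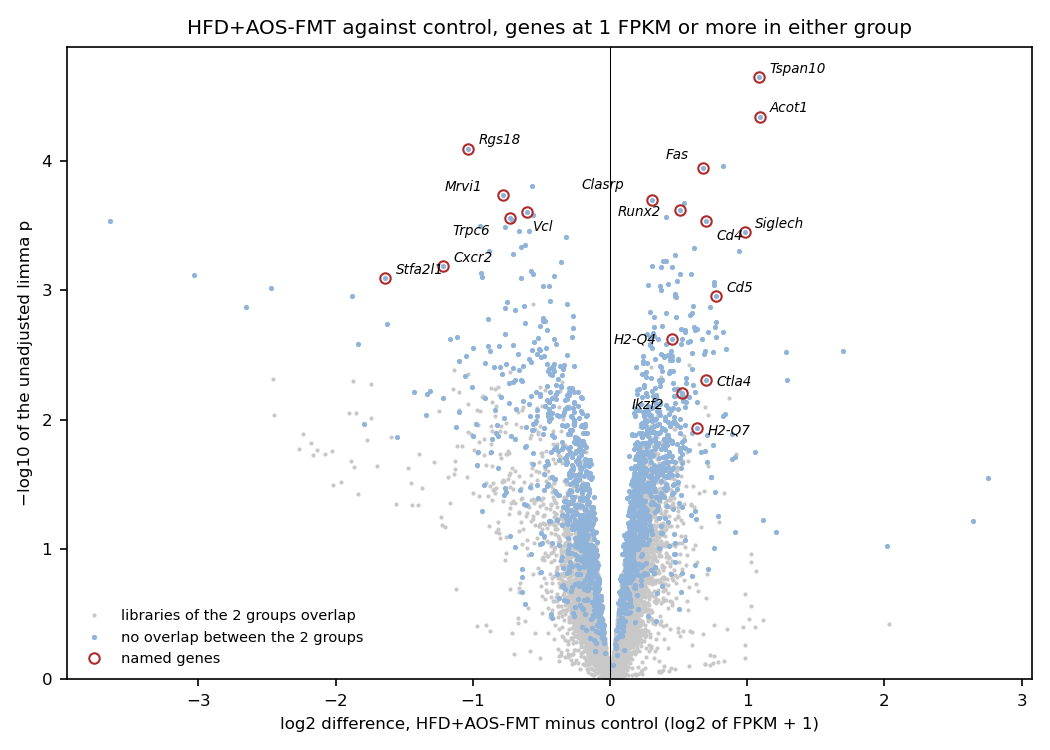
Each point is a gene. The horizontal axis is the difference in log2(FPKM + 1), HFD+AOS-FMT minus control, and the vertical axis is −log10 of the unadjusted limma p. Blue points are the 910 higher and 746 lower genes whose 3 + 3 libraries do not overlap, grey points overlap, and red rings mark the 18 named genes; none of the points passes an adjusted p of 0.05.

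Among the genes with the smallest p of those higher in HFD+AOS-FMT were *Tspan10*, *Acot1*, *Fas* and *Clasrp*, all with an adjusted p of 0.209. *Tspan10* (chromosome 11, 120442644 to 120446950 on mm10, plus strand) codes for a tetraspanin of the cell membrane. It was at 1.13, 1.02 and 0.74 FPKM in the controls and at 2.81, 3.26 and 3.43 FPKM in HFD+AOS-FMT. Every HFD+AOS-FMT library lay above every control, and the log2 difference was 1.09 ± 0.182 (SE; 95% interval 0.70 to 1.48). *Acot1* (chromosome 12, 84009490 to 84018371, plus strand) codes for a cytosolic acyl-CoA thioesterase that PPAR-alpha controls, and it lies beside close paralogs from which reads may be hard to separate. It was at 1.39, 1.77 and 1.81 FPKM in controls against 3.6, 5.37 and 5.14 FPKM, a log2 difference of 1.09 ± 0.195 with no overlap.

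*Fas* (chromosome 19, 34290666 to 34327772, plus strand), a death receptor also used as a marker of germinal centre B cells, was at 9.07, 12.4 and 12.6 FPKM in controls and 17.9, 18.6 and 19.2 FPKM in HFD+AOS-FMT. The HFD+AOS-FMT libraries lay close together here and all above the controls. *Clasrp* (chromosome 7, 19581035 to 19604486, minus strand), which codes for a protein that interacts with splicing kinases, was at 13.5, 15.0 and 15.9 FPKM in controls and 18.9, 17.7 and 18.9 FPKM in HFD+AOS-FMT. The log2 differences were 0.68 for *Fas* and 0.31 for *Clasrp*.

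Among genes lower in HFD+AOS-FMT those with the smallest p included *Rgs18*, *Mrvi1*, *Vcl* and *Trpc6*, again with an adjusted p of 0.209. *Rgs18* (chromosome 1, 144752683 to 144775435, minus strand) codes for a regulator of G protein signalling that is abundant in platelets and megakaryocytes. It was at 43.0, 23.02 and 19.6 FPKM in controls and at 13.9, 11.6 and 12.4 FPKM in HFD+AOS-FMT, a log2 difference of −1.04 ± 0.195. Control replicate 1 was far above the rest, and the groups did not overlap. *Mrvi1* (chromosome 7, 110868266 to 110982461, minus strand), a substrate of cGMP-dependent kinase in platelets and smooth muscle, was at 11.3, 7.79 and 6.95 FPKM against 5.21, 4.48 and 4.03 FPKM.

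*Vcl* (chromosome 14, 20929398 to 21033676, plus strand), vinculin of focal adhesions, was at 51.8, 38.2 and 37.4 FPKM in controls and 28.2, 27.4 and 26.1 FPKM in HFD+AOS-FMT. *Trpc6* (chromosome 9, 8544142 to 8680741, plus strand), a cation channel, was at 5.58, 3.46 and 2.95 FPKM against 2.33, 1.75 and 1.8 FPKM. In each of these 4 genes control replicate 1 had the highest level, as it also had for neutrophil and platelet markers. The part of that library in the differences was not tested beyond leaving it out: the log2 differences without single libraries or under other settings ran from −1.26 to −0.71 for *Rgs18*, from −0.91 to −0.59 for *Mrvi1*, from −0.69 to −0.46 for *Vcl* and from −0.95 to −0.51 for *Trpc6*.

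**Figure D2:**
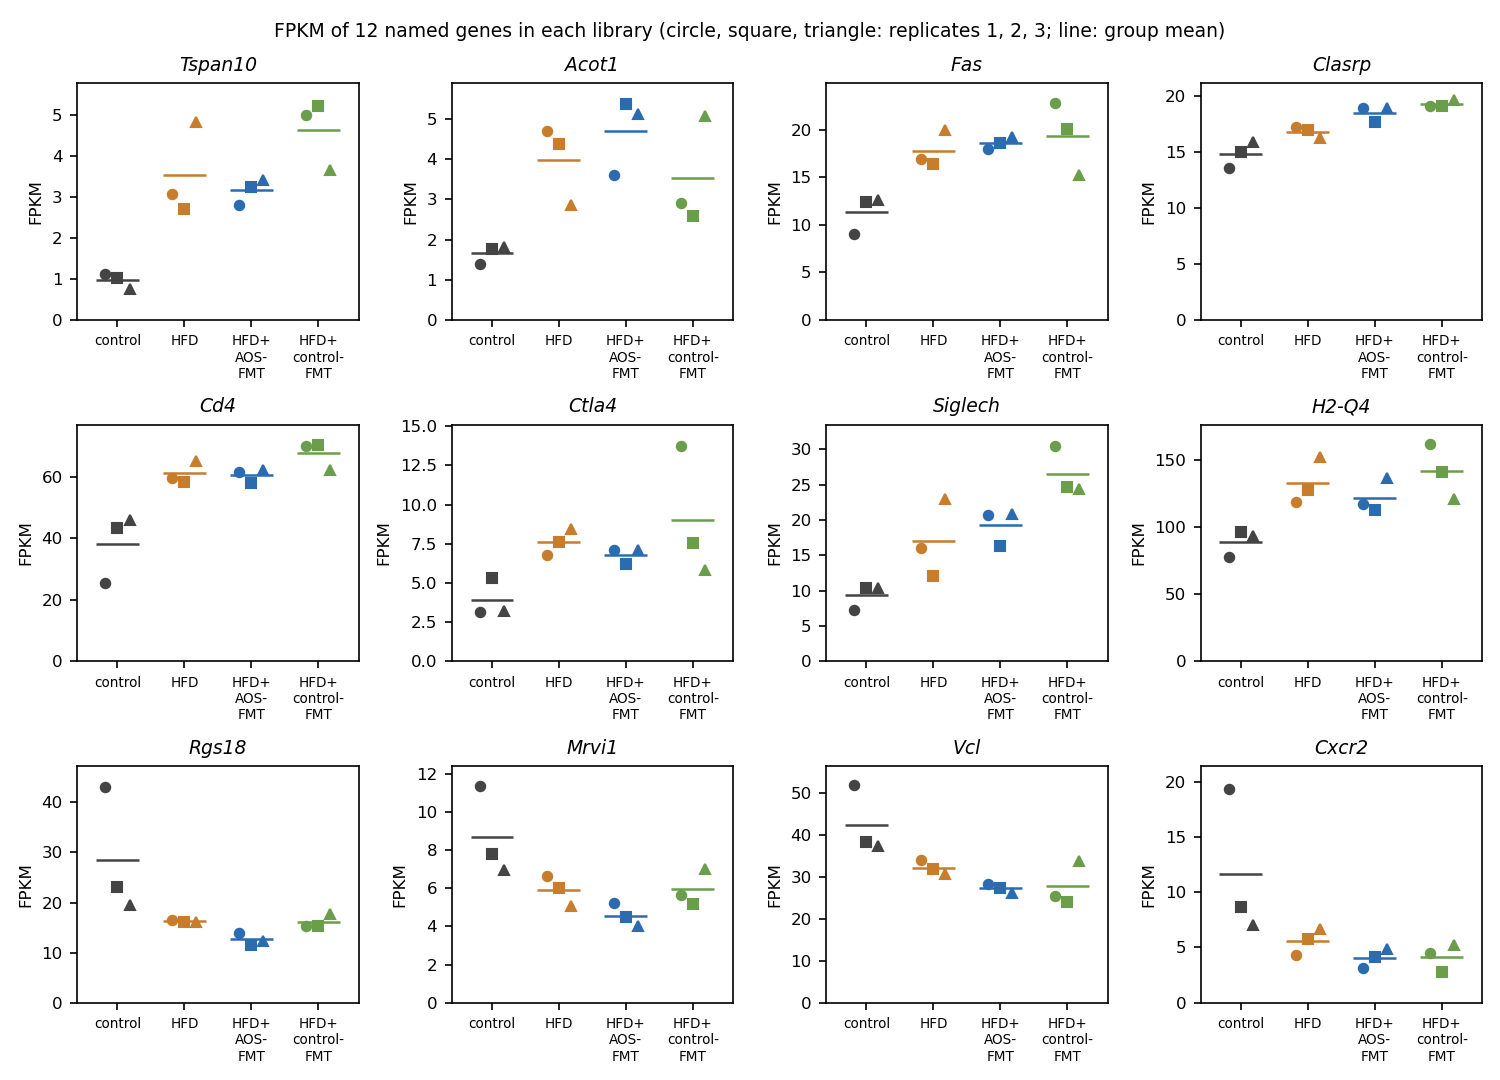
FPKM (vertical axis, from 0) of 12 named genes in the 3 libraries of control, HFD, HFD+AOS-FMT and HFD+control-FMT. Circles, squares and triangles are replicates 1, 2 and 3 and lines are group means. In each panel the blue HFD+AOS-FMT points lie all above or all below the dark control points.

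Genes of T lymphocytes lay higher in HFD+AOS-FMT. All 15 T cell markers had a positive difference (median 0.53, range 0.28 to 0.77), 11 of the 15 had groups that did not overlap, against 7.15% of all members, and 0 passed an adjusted p of 0.05. *Cd4* (chromosome 6, 124864692 to 124888221, minus strand), the co-receptor of helper T cells, was at 25.3, 43.3 and 45.9 FPKM in controls and 61.6, 58.1 and 62.5 FPKM in HFD+AOS-FMT (log2 difference 0.70 ± 0.151, limma adjusted p = 0.209). *Cd5* (chromosome 19, 10717116 to 10739002, minus strand), a receptor that tunes antigen receptor signalling, was at 10.7, 18.4 and 21.2 against 30.2, 25.6 and 29.1 FPKM. Control replicate 1 was the lowest library for both genes, and the HFD+AOS-FMT libraries lay above all controls. The median difference of the T cell list from control was 0.69 in HFD and 0.69 in HFD+control-FMT.

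*Cd3g*, a chain of the T cell receptor complex, also separated the groups. It was at 48.7, 82.8 and 82.3 FPKM in controls and 107.7, 101.5 and 104.3 FPKM in HFD+AOS-FMT. *Il7r*, the interleukin 7 receptor that keeps naive T cells alive, was at 10.8, 15.0 and 18.4 against 21.2, 20.5 and 25.9 FPKM. *Cd8a*, the co-receptor of cytotoxic T cells, overlapped between the groups, at 10.7, 19.1 and 20.6 FPKM in controls and 20.2, 19.4 and 20.01 FPKM in HFD+AOS-FMT. The mean of the T cell list was 4.05 on the log2 scale in control replicate 1, against 4.78 and 4.89 in the other controls and 5.04 to 5.2 in HFD+AOS-FMT. The list median was 0.26 without control replicate 1, 0.64 without control replicate 2 and 0.68 without control replicate 3. In that last setting 9 of its 15 genes passed, against 2.22% of all members called higher.

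Markers of regulatory T cells, which restrain immune responses, also lay higher. All 9 had a positive difference (median 0.46), 6 did not overlap, against 7.15% of all members, and none passed the adjusted test. *Ctla4* (chromosome 1, 60887000 to 60915832, plus strand), an inhibitory receptor, was at 3.15, 5.29 and 3.2 FPKM in controls and 7.09, 6.19 and 7.08 FPKM in HFD+AOS-FMT (log2 difference 0.70 ± 0.213, limma adjusted p = 0.295). *Ikzf2* (chromosome 1, 69531214 to 69687245, minus strand), the transcription factor Helios, was at 1.28, 2.47 and 1.94 against 3.35, 2.68 and 3.33 FPKM. For both genes control replicate 2 was the control nearest to HFD+AOS-FMT. *Foxp3*, the lineage factor of these cells, was at 1.89, 4.07 and 2.88 FPKM in controls and 4.79, 4.16 and 4.27 FPKM in HFD+AOS-FMT.

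Of 15 genes tied to T cell activation, 14 lay higher (median 0.43) and 7 did not overlap, against 7.15% of all members. *Dusp2*, a phosphatase induced in activated T cells, was at 21.5, 29.7 and 35.4 FPKM in controls and 42.3, 47.3 and 39.6 FPKM in HFD+AOS-FMT. *Lag3*, an inhibitory receptor, was at 2.47, 4.57 and 3.26 against 6.6, 5.1 and 6.45 FPKM. *Izumo1r*, which codes for the folate receptor 4 of regulatory and anergic T cells and was chosen after its values were seen, was at 11.8, 16.3 and 13.9 FPKM in controls and 28.0, 23.5 and 31.9 FPKM in HFD+AOS-FMT. These 3 genes had no overlap between the groups, and their adjusted p values were 0.263, 0.344 and 0.220.

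Markers of plasmacytoid dendritic cells, the main source of type I interferon in blood and lymphoid organs, were higher in all 7 genes (median 0.49), with 4 not overlapping, against 7.15% of all members. The median was 0.26 without control replicate 1. *Siglech* (chromosome 7, 55768178 to 55778925, plus strand), a surface lectin of these cells in mice, was at 7.26, 10.3 and 10.3 FPKM in controls and 20.7, 16.4 and 20.8 FPKM in HFD+AOS-FMT (log2 difference 0.98 ± 0.215, limma adjusted p = 0.209). *Runx2* (chromosome 17, 44495987 to 44814797, minus strand), a transcription factor that these cells express, was at 2.01, 2.17 and 2.64 against 3.71, 3.45 and 3.76 FPKM. Both genes separated the groups with a wide gap, and the controls lay close together. *Cox6a2*, a subunit of cytochrome oxidase with a narrow expression that includes these cells, was at 4.33, 4.54 and 5.28 against 9.15, 6.99 and 9.47 FPKM. *Ly6d* and *Tcf4*, which B cells also express, overlapped, with log2 differences of 0.02 and 0.17.

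Conventional dendritic cell markers were less apart: all 9 lay higher with a median of 0.19 that was 0.03 without control replicate 1. Of the 9, 1 did not overlap, against 7.15% of all members. It was *Clec10a* (3.45, 3.11 and 3.34 against 5.04, 4.73 and 4.47 FPKM). B cell markers overlapped between the groups in all 13 genes. *Cd79a*, a chain of the B cell receptor, was at 508, 756 and 897 FPKM in controls and 844, 932 and 918 FPKM in HFD+AOS-FMT. The B cell list had a median of 0.21 with all libraries, 0.03 without control replicate 1 and 0.39 without control replicate 3. All 12 plasma cell genes lay higher, with a median of 0.19 and no gene without overlap. That median was 0.08 without control replicate 1, 0.33 without control replicate 2 and 0.13 without control replicate 3. Of 8 germinal centre B cell genes, 7 lay higher, with a median of 0.34. That median was 0.61 without control replicate 2 and 0.22 without control replicate 3. Of the 8, 2 did not overlap, against 7.15% of all members: *Fas* and *Bcl6*, the master factor of these cells. *Bcl6* was at 13.9, 16.9 and 17.6 against 18.8, 20.2 and 18.9 FPKM.

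Genes of MHC class I, which presents peptides to CD8 T cells, and of its peptide supply and assembly lay higher in 11 of 12 cases (median 0.33). Of the 12, 8 did not overlap, against 7.15% of all members. *H2-Q4* (chromosome 17, 35379617 to 35385290, plus strand) was at 77.3, 96.0 and 93.4 FPKM in controls and 116.6, 112.4 and 136.3 FPKM in HFD+AOS-FMT (log2 difference 0.45 ± 0.124, limma adjusted p = 0.270). *H2-Q7* (chromosome 17, 35439155 to 35443773, plus strand) was at 23.9, 21.8 and 24.1 against 34.9, 33.9 and 41.2 FPKM. Some of these genes, such as those of the *H2-Q* group, are close copies that vary between outbred mice, so the division of reads among them is uncertain. *H2-D1*, a classical class I gene, was at 1082, 1019 and 1266 FPKM in controls and 1543, 1538 and 1560 FPKM in HFD+AOS-FMT. *B2m*, the light chain that all class I molecules share, was at 1783, 2355 and 2325 against 2471, 2372 and 2590 FPKM, a log2 difference of 0.21 with control replicate 1 again the lowest.

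MHC class II genes lay higher in 9 of 10 cases with a median of 0.16, and none was free of overlap. The median was 0.05 without control replicate 1 and 0.37 without control replicate 3. The exception was *H2-Eb1*, at 241.6, 269.3 and 257.8 FPKM in controls and 46.8, 102.0 and 332.9 FPKM in HFD+AOS-FMT, where a single treated library lay above all controls and the other two far below. Genes induced by interferon gamma lay higher in 18 of 22 cases (median 0.15), and 4 did not overlap, against 7.15% of all members. These 4 were *Tap1* and *Tap2*, which carry peptides to class I molecules, *Nlrc5*, a transactivator of class I genes, and the transcription factor *Irf1*. *Irf1* was at 42.0, 54.3 and 58.8 FPKM in controls and 62.3, 62.5 and 62.4 FPKM in HFD+AOS-FMT. *Tnf*, the inflammatory cytokine, was at 5.63, 5.84 and 5.26 against 7.64, 7.13 and 9.1 FPKM, and 14 of 15 genes of the cytokine and NF-kB list lay higher with a median of 0.25. Without control replicate 1 the interferon gamma median was 0.02 and the cytokine median 0.10. The interferon gamma median was 0.25 without control replicate 2 and 0.05 without HFD+AOS-FMT replicate 3.

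Genes of the type I interferon response lay on the other side. Of 20 measured, 18 were lower in HFD+AOS-FMT (median −0.38) and 6 did not overlap, against 5.86% of all members. *Oasl2*, an interferon-induced protein related to the antiviral oligoadenylate synthetases, was at 21.3, 14.1 and 10.9 FPKM in controls and 8.78, 9.22 and 9.69 FPKM in HFD+AOS-FMT. *Ifi44* was at 5.2, 4.68 and 4.09 against 2.26, 2.66 and 3.16 FPKM, and *Xaf1*, a proapoptotic interferon target, at 23.2, 17.8 and 29.1 against 13.1, 16.8 and 15.5 FPKM. No gene of this list reached an unadjusted p under 0.05, and the smallest adjusted p was 0.50 (limma). The list median was −0.19 without control replicate 1 and −0.49 without control replicate 2.

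Neutrophil genes were lower in HFD+AOS-FMT, and the controls were far apart for them. All 11 mature neutrophil markers lay lower (median −1.62) and 7 did not overlap, against 5.86% of all members. The median was −1.0 without control replicate 1. *Cxcr2* (chromosome 1, 74153989 to 74161246, plus strand), the chemokine receptor that draws neutrophils out of the marrow, was at 19.4, 8.65 and 7.01 FPKM in controls and 3.18, 4.1 and 4.89 FPKM in HFD+AOS-FMT (log2 difference −1.22 ± 0.285, limma adjusted p = 0.220). *Stfa2l1* (chromosome 16, 36156811 to 36161953, plus strand), a stefin of the neutrophil cysteine protease inhibitors with close paralogs, was at 21.1, 9.58 and 4.78 against 1.96, 2.62 and 3.16 FPKM. *S100a8*, a subunit of calprotectin and among the most abundant neutrophil transcripts, was at 5154, 1315 and 275.6 FPKM in controls and 363.5, 217.5 and 251.9 FPKM in HFD+AOS-FMT, so that it overlapped.

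Genes of granule proteins made by immature neutrophils were lower in all 11 cases, with a median of −2.02, and none was free of overlap. *Ltf*, lactoferrin, was at 396.5, 116.5 and 20.1 FPKM in controls and 23.2, 14.0 and 15.7 FPKM in HFD+AOS-FMT. *Mpo*, myeloperoxidase, was at 198.0, 62.3 and 10.6 against 13.5, 10.7 and 10.6 FPKM. Control replicate 3 sat at the level of the treated libraries for these genes, and control replicate 1 was more than an order of magnitude above. The median was −0.97 without control replicate 1 and −3.17 without control replicate 3. In the latter setting all 11 passed, against 2.33% of all members called lower. *Anxa1*, an annexin rich in neutrophils and chosen after its values were seen, was at 330.4, 111.8 and 48.3 FPKM in controls and 46.0, 42.4 and 45.2 FPKM in HFD+AOS-FMT.

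Platelet and megakaryocyte genes followed the same order of libraries. All 14 lay lower (median −0.79, range −0.93 to −0.60) and 5 did not overlap, against 5.86% of all members. *Tubb1*, the platelet beta-tubulin, was at 80.2, 42.0 and 35.7 FPKM in controls and 29.4, 22.7 and 24.6 FPKM in HFD+AOS-FMT (limma adjusted p = 0.220). *Selp*, P-selectin of platelet granules, was at 10.5, 4.35 and 4.0 against 2.89, 2.41 and 2.67 FPKM, and *Ppbp*, a platelet chemokine precursor, at 754.3, 416.3 and 341.4 against 327.9, 259.9 and 239.6 FPKM. In these 3 genes the treated libraries lay below all controls. The list median was −0.42 without control replicate 1 and −1.04 without control replicate 3. In the latter setting 10 of 14 passed, against 2.33% of all members called lower.

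Other genes lower in HFD+AOS-FMT, chosen after their values were seen, code for proteins of platelets or of the contractile skeleton. *Thbs1*, thrombospondin, was at 49.8, 30.0 and 20.8 FPKM in controls and 16.8, 15.2 and 15.8 FPKM in HFD+AOS-FMT. *F5*, coagulation factor V, was at 16.4, 9.68 and 7.34 against 5.3, 5.36 and 4.35 FPKM. *Tln1*, talin, which links integrins to actin, had a smaller difference and tighter controls: 93.8, 84.5 and 86.7 against 72.3, 68.0 and 70.8 FPKM. All 8 smooth muscle genes also lay lower (median −0.42), and *Acta2*, smooth muscle actin, was at 49.5, 72.5 and 51.6 against 36.3, 44.0 and 28.1 FPKM with no overlap. Control replicate 1 had the lowest *Acta2* level of the controls, and without it the smooth muscle median was −0.40. That median was −0.27 without HFD+AOS-FMT replicate 3.

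**Figure D3:**
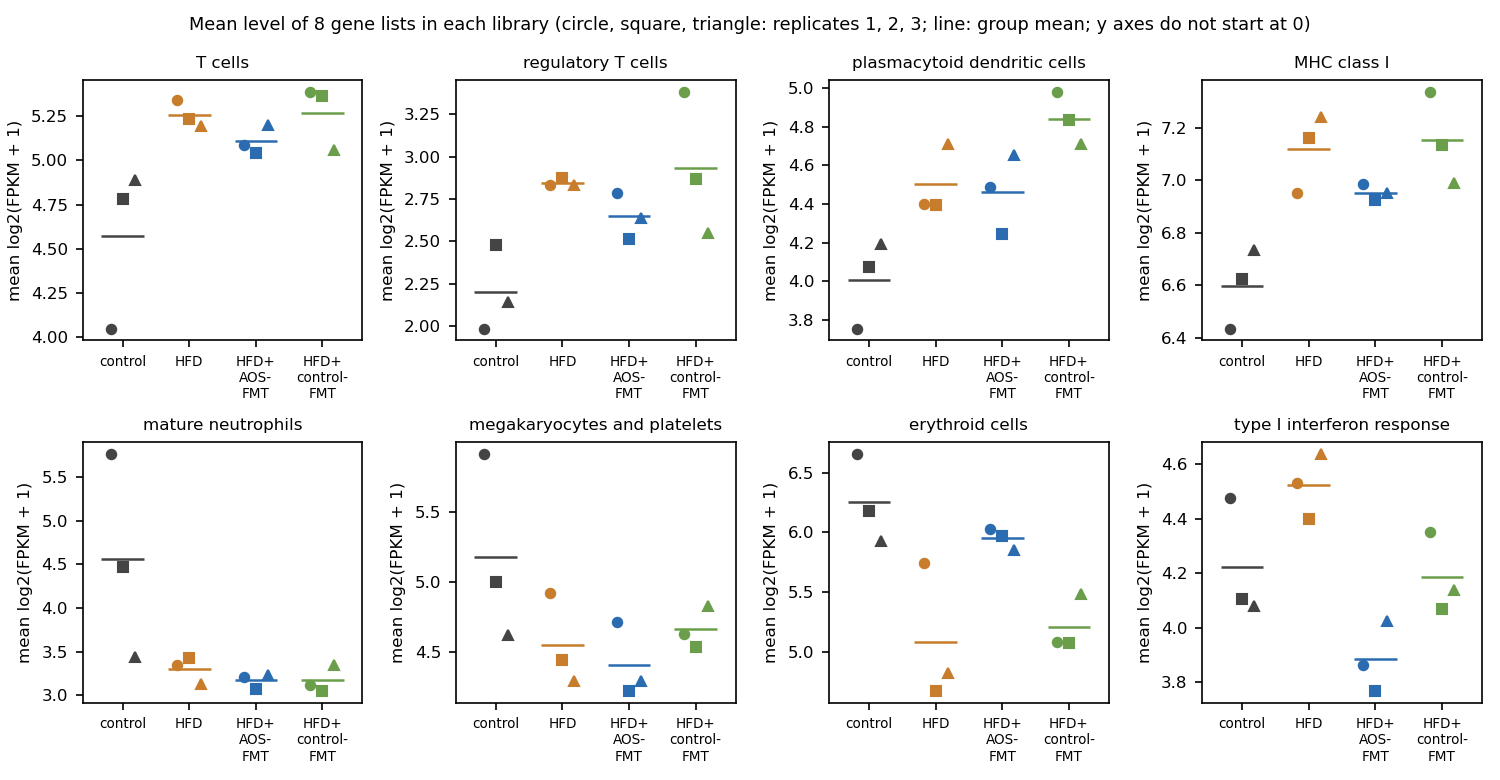
Mean log2(FPKM + 1) over the members of 8 gene lists (vertical axes, not from 0) in each library of 4 groups; symbols as in the plot of named genes. The control libraries spread most for mature neutrophils, from 3.44 to 5.76, while the HFD+AOS-FMT libraries lie between 3.08 and 3.23. Erythroid genes in HFD+AOS-FMT lie at 5.85 to 6.03, within reach of the controls and above HFD.

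Macrophage and natural killer cell lists gave few differences. *Siglec1*, the sialic acid receptor of marginal zone metallophilic macrophages, was at 6.91, 6.56 and 10.4 FPKM in controls and 3.11, 4.62 and 4.41 FPKM in HFD+AOS-FMT without overlap (log2 difference −0.81, limma adjusted p = 0.361). *Cd5l*, a secreted protein of tissue macrophages, was at 16.0, 15.2 and 16.7 against 13.3, 13.8 and 12.5 FPKM. Both belong to a marginal zone macrophage list of 5 genes, of which 4 lay lower and 1 higher (median −0.28). Of these, 2 did not overlap, against 5.86% of all members. All 11 red pulp macrophage genes overlapped between the groups, with a median of 0.03. That median was 0.11 without control replicate 3 and −0.10, with all 11 genes lower, without HFD+AOS-FMT replicate 2. Of 12 natural killer and cytotoxic genes, 5 lay higher and 7 lower (median −0.12). That median was 0.02 without control replicate 3 and 0.04 without HFD+AOS-FMT replicate 2. Without overlap, 2 genes lay lower, against 5.86% of all members, and 1 higher, against 7.15%. *Ncr1*, a receptor of natural killer cells, was at 8.14, 8.49 and 12.6 against 5.85, 6.98 and 6.22 FPKM. *Gzmb*, granzyme B, was at 2.69, 2.98 and 3.02 against 1.81, 1.61 and 1.79 FPKM. *Tbx21*, the T-bet transcription factor of type 1 lymphocytes, lay the other way, at 3.91, 6.35 and 4.82 against 7.27, 6.62 and 6.87 FPKM.

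Red cell genes lay slightly lower in HFD+AOS-FMT than in controls. All 19 erythroid genes had a negative difference (median −0.28) and 6 did not overlap, against 5.86% of all members. *Trim10*, a protein needed in late erythroid differentiation, was at 137.9, 97.4 and 87.4 FPKM in controls and 58.8, 67.5 and 79.3 FPKM in HFD+AOS-FMT. *Klf1*, the erythroid master factor, overlapped at 180.9, 138.0 and 114.3 against 130.5, 124.6 and 113.9 FPKM. Without control replicate 1 the erythroid median was −0.04. The 14 genes of haem synthesis and iron use behaved alike, with a median of −0.23 that became 0.02 without that library and −0.42 without control replicate 3. *Alas2*, the first enzyme of erythroid haem synthesis, was at 862.5, 596.3 and 468.4 against 500.6, 457.3 and 507.1 FPKM.

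Cell division genes had the same ordering. All 30 cell cycle genes lay lower (median −0.25), each with overlap, and 25 of 27 DNA replication genes lay lower (median −0.15). *Mki67*, the proliferation antigen, was at 191.6, 144.8 and 121.4 FPKM in controls and 134.0, 123.7 and 117.4 FPKM in HFD+AOS-FMT. The 3 treated libraries were close together and near control replicate 3. Without control replicate 1 the medians of the 2 lists were −0.06 and −0.00, and without control replicate 3 they were −0.47 and −0.34.

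Heat shock genes, which code for chaperones that refold proteins, were higher in all 12 cases (median 0.59), with 4 free of overlap, against 7.15% of all members. The median was 0.27 without control replicate 1. Mean log2 levels of these genes were 6.03, 6.94 and 7.46 in controls and 7.51, 7.80 and 7.15 in HFD+AOS-FMT, so that control replicate 3 lay above HFD+AOS-FMT replicate 3. *Hspe1*, the small partner of the mitochondrial chaperonin, was at 201.5, 246.3 and 222.7 FPKM in controls and 313.5, 331.1 and 286.2 FPKM in HFD+AOS-FMT (log2 difference 0.47, limma adjusted p = 0.353). *Hsph1*, a large cytosolic chaperone, was at 30.8, 83.8 and 134.7 against 157.6, 193.3 and 146.3 FPKM, and *Bag3*, a co-chaperone, at 8.43, 14.7 and 17.98 against 23.9, 26.0 and 18.4 FPKM. For *Hsph1* the controls spanned more than the gap between the groups. *Jund*, of the immediate early list, was at 37.6, 41.6 and 38.4 against 53.7, 50.5 and 51.0 FPKM.

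Of metabolic lists, the fatty acid oxidation genes controlled by PPAR receptors were mixed. Of 18 genes, 11 lay higher and 7 lower, with a median of 0.03. Besides *Acot1*, *Cpt1a*, the entry step of mitochondrial fatty acid oxidation, was at 22.8, 23.7 and 25.2 FPKM in controls and 26.4, 38.6 and 30.5 FPKM in HFD+AOS-FMT. *Cpt2*, the partner enzyme on the inner membrane, lay lower, at 11.6, 11.1 and 10.1 against 9.11, 9.33 and 8.34 FPKM. Both separated the groups, in opposite directions. *Fgf21*, a fasting and PPAR-alpha hormone chosen after its values were seen, was at 0.33, 0.59 and 0.26 against 1.54, 1.79 and 1.08 FPKM, near the lower limit for members.

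Of 19 Nrf2 and glutathione genes, which serve antioxidant defence, 17 lay lower and 7 did not overlap (5.86% of all members), with a median of −0.15. *Gstm1*, a glutathione transferase with close paralogs, was at 43.3, 43.6 and 37.0 FPKM in controls and 21.6, 31.6 and 22.3 FPKM in HFD+AOS-FMT (log2 difference −0.71, limma adjusted p = 0.220). *Gsr*, glutathione reductase, was at 29.1, 18.6 and 12.4 against 9.73, 8.78 and 10.4 FPKM. *G6pdx*, which supplies NADPH, was at 63.2, 38.2 and 31.9 against 27.3, 31.1 and 26.9 FPKM. For *Gsr* and *G6pdx* control replicate 1 was again the highest, but for *Gstm1* it was level with control replicate 2. *Ffar2*, a receptor for short-chain fatty acids that gut bacteria make, was at 10.2, 9.74 and 10.2 FPKM in controls and 6.14, 6.47 and 8.78 FPKM in HFD+AOS-FMT without overlap (log2 difference −0.46, limma adjusted p = 0.270). Its list, of bile acid, short-chain fatty acid and aryl hydrocarbon sensing genes, had 5 members. Of these, 3 lay higher and 2 lower, with a median of 0.06. The cholesterol synthesis list had a median of 0.06.

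**Figure D4:**
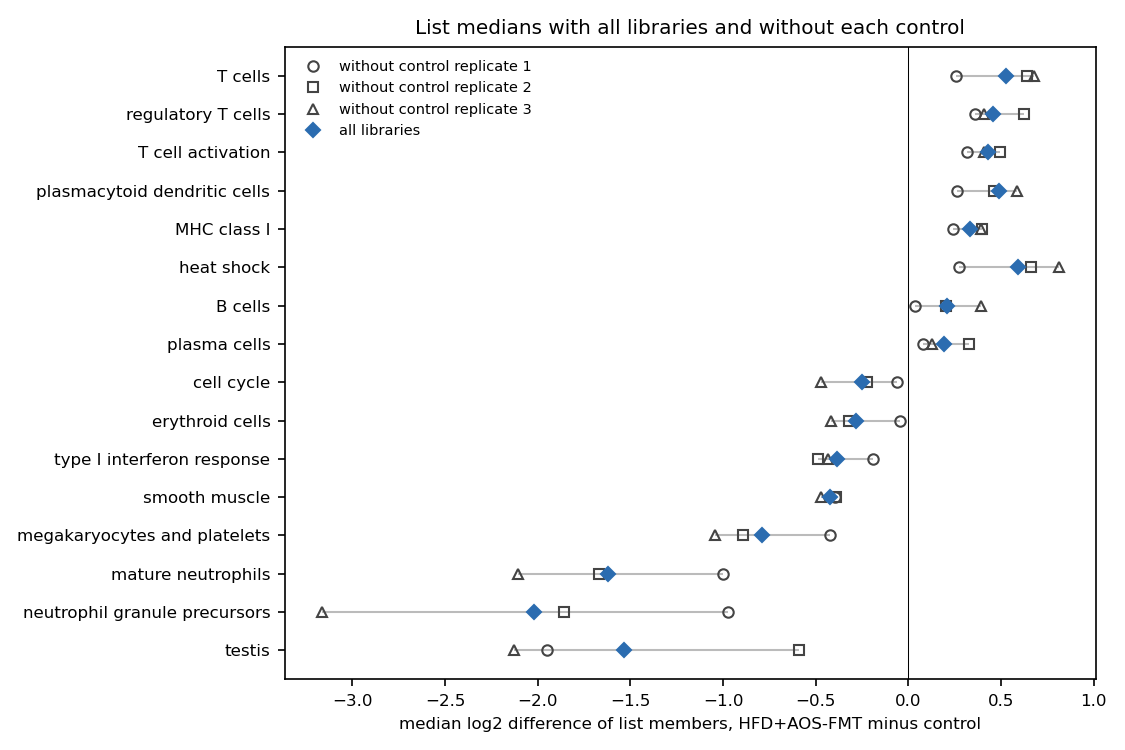
Median log2 difference, HFD+AOS-FMT minus control, of 16 gene lists with all libraries (diamonds) and without control replicate 1, 2 or 3 (open circle, square and triangle). Medians of the lymphocyte, plasma cell, plasmacytoid dendritic cell, MHC class I and heat shock lists stay above 0. Those of cell cycle, erythroid, neutrophil, platelet and testis lists stay below 0, but the neutrophil granule median runs from −3.17 to −0.97. The type I interferon median is −0.38 with all libraries.

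Transcripts of other tissues differed among these libraries. The 10 testis genes summed to 67.9, 327.1 and 43.6 FPKM in controls and to 28.7, 40.7 and 30.2 FPKM in HFD+AOS-FMT, and all 10 lay lower. *Prm1*, sperm protamine, was at 11.3, 85.6 and 6.56 FPKM in controls and 0.59, 3.87 and 0.91 FPKM in HFD+AOS-FMT. The median of this list was −1.53, and −0.59 without control replicate 2. The 13 exocrine pancreas genes summed to 2273, 366 and 25.4 FPKM in controls and 62.9, 3451 and 282 FPKM in HFD+AOS-FMT. Their median of 0.56 became −1.13 without control replicate 3 and −0.89 without HFD+AOS-FMT replicate 2. Liver genes summed to 22.96, 299 and 264 FPKM against 64.7, 455 and 72.0 FPKM. The pancreas lies against the spleen, and the part of such RNA in the other results was not tested.

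*Kap*, chosen after its values were seen, had the largest negative difference of all members (log2 difference −3.64 ± 0.759, limma adjusted p = 0.209). The gene codes for an androgen-regulated protein known mainly from kidney tubules. It was at 13.3, 20.1 and 21.0 FPKM in controls and 0.8, 0.9 and 0 FPKM in HFD+AOS-FMT. In HFD it was at 27.1, 21.2 and 0.48 FPKM, and in HFD+control-FMT it was listed at 0 in all 3 libraries. The AOS group without the diet also had 0 in all 3 libraries, and the AOS group with the diet had 0.15, 0 and 0 FPKM. Low levels of *Kap* were thus not particular to HFD+AOS-FMT. *Kap* passed without HFD replicate 3 (limma adjusted p = 7.01e-07), the HFD library at 0.48 FPKM, and without control replicate 3 (limma adjusted p = 0.0450). Over its other settings the adjusted p ran from 0.0613 to 0.581. All 9 genes of a kidney list made after seeing these values stayed under 1 FPKM in the 6 libraries, summing to 0.8 to 1.04 FPKM in controls and 0.34 to 0.38 FPKM in HFD+AOS-FMT, with *Aqp2* at 0.

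**Figure D5:**
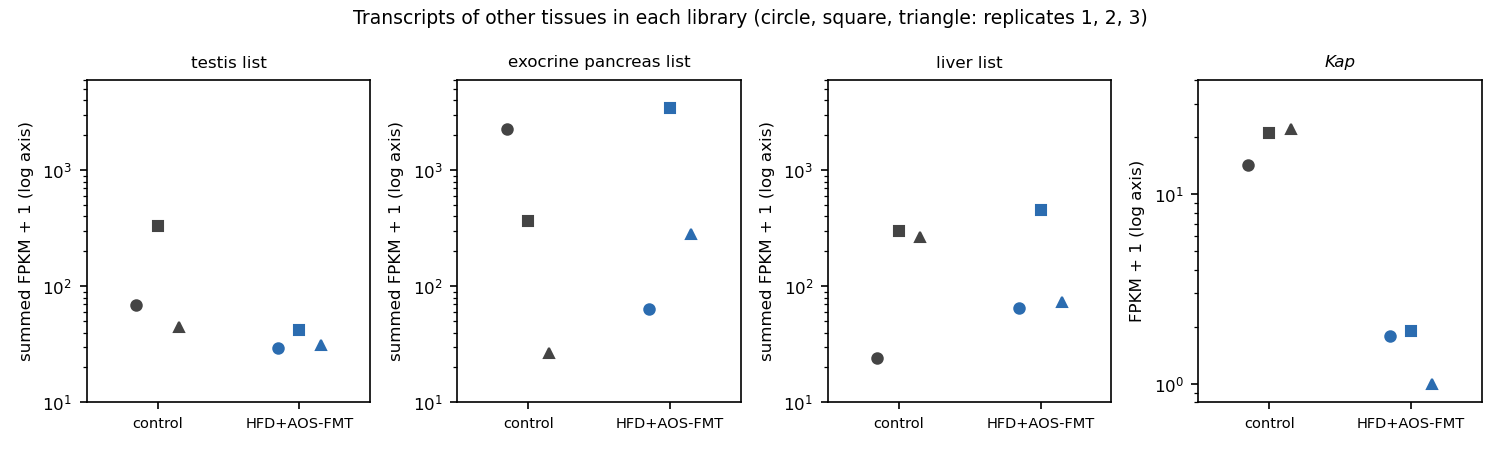
Summed FPKM + 1 of the testis, exocrine pancreas and liver lists, and FPKM + 1 of *Kap*, in each control and HFD+AOS-FMT library (log axes; circle, square and triangle are replicates 1, 2 and 3). Control replicate 2 stands out for testis at 327.1 FPKM, pancreas values run from 25.4 to 3451 FPKM, and *Kap* separates the groups.

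The values of HFD+AOS-FMT were then set beside those of the diet alone. No gene differed between HFD+AOS-FMT and HFD (0 of 12969, 0%; limma, smallest adjusted p = 0.103), with 1770 genes at an unadjusted p under 0.05. Without HFD replicate 1, 39 genes passed, and without HFD replicate 3 *Kap* alone did. HFD against control, which shares its control libraries with the main comparison, gave 357 genes (2.75%), 189 of them higher (1.46%) and 168 lower (1.30%) in HFD. HFD+control-FMT against control gave 665 (5.13%), 414 of them higher (3.19%) and 251 lower (1.94%) in HFD+control-FMT. *Tspan10*, the gene with the smallest p above, was at 3.08, 2.72 and 4.85 FPKM in HFD and 5.02, 5.24 and 3.67 FPKM in HFD+control-FMT. Its difference between HFD+AOS-FMT and HFD was −0.10 on the log2 scale (95% interval −0.49 to 0.29). The interval for *Acot1* was −0.21 to 0.61, for *Cd4* −0.33 to 0.31, for *Fas* −0.21 to 0.35, for *Siglech* −0.25 to 0.67 and for *Cxcr2* −0.98 to 0.23. These intervals hold 0, and they also allow differences of the sizes they span. Several lists lay to the same side of these shared controls in HFD and HFD+control-FMT. The regulatory T cell medians against control were 0.62 and 0.76, and those of MHC class I 0.46 and 0.50. For plasmacytoid dendritic cells they were 0.58 and 0.74, for mature neutrophils −1.50 and −1.62 and for platelets −0.62 and −0.49. Not every list did so: the type I interferon medians were 0.46 and 0.04.

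Red cell genes showed another arrangement of levels. *Epb42*, which helps tie the erythrocyte skeleton to its membrane, was at 58.9, 45.8 and 46.3 FPKM in controls, 37.5, 40.9 and 41.9 FPKM in HFD+AOS-FMT, 31.4, 13.7 and 19.6 FPKM in HFD and 21.7, 18.6 and 28.9 FPKM in HFD+control-FMT. HFD+AOS-FMT thus lay below all controls and above all libraries of the other two groups. Its difference from HFD was 0.94 on the log2 scale (95% interval 0.38 to 1.5), which did not pass adjustment (limma adjusted p = 0.263). All 19 erythroid genes were higher in HFD+AOS-FMT than in HFD (median 0.86), and 0 passed. Without HFD replicate 1 the median was 1.19 and 6 passed, among the genes counted for that omission above. Against HFD+control-FMT the erythroid median was 0.78. HFD replicate 1 lay near the HFD+AOS-FMT libraries, with an erythroid mean of 5.74 on the log2 scale against 4.67 and 4.82 in the other HFD libraries. *Mki67* was at 109.7, 60.8 and 81.4 FPKM in HFD, and all 30 cell cycle genes lay higher in HFD+AOS-FMT than in HFD (median 0.37, none passing). That median was 0.56 without HFD replicate 1 and 0.23 without HFD replicate 2.

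Type I interferon genes in HFD+AOS-FMT lay at lower list averages than in either HFD or control, and the heat shock median was positive against both. The interferon list averaged 3.77 to 4.03 on the log2 scale in HFD+AOS-FMT, 4.08 to 4.48 in controls and 4.40 to 4.64 in HFD. *Oasl2* was at 20.4, 21.8 and 21.5 FPKM in HFD, all above the 9.69 FPKM that was the highest HFD+AOS-FMT value, and the difference was −1.12 on the log2 scale (limma adjusted p = 0.281). *Gzmb*, at 2.63, 4.22 and 6.79 FPKM in HFD, also differed by −0.95 (limma adjusted p = 0.263). The heat shock median against HFD was 0.63, with all 12 genes higher. Without HFD replicate 1 it was 0.25 with 9 higher, and without HFD replicate 3 it was 1.01. *Hspe1* was at 149.7, 222.5 and 290.4 FPKM in HFD, overlapping HFD+AOS-FMT. *C3*, the central complement component, was at 220.9, 246.4 and 207.9 FPKM in HFD+AOS-FMT against 313.6, 339.8 and 319.9 FPKM in HFD, a log2 difference of −0.53 (limma adjusted p = 0.229). None of these passed the adjusted test.

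Against HFD+control-FMT, which differs from HFD+AOS-FMT in the label of the transplant alone, 1 gene of 12969 (0.00771%) passed. *Dbp*, a clock-controlled transcription factor with a strong daily rhythm, was at 5.95, 4.68 and 7.12 FPKM in HFD+AOS-FMT and at 17.96, 21.4 and 16.3 FPKM in HFD+control-FMT (log2 difference −1.51 ± 0.170, limma adjusted p = 0.00245). In controls it was at 4.89, 7.12 and 7.15 FPKM, overlapping HFD+AOS-FMT. In HFD it was at 7.36, 7.14 and 6.94 FPKM, and in the AOS group with the diet at 12.5, 15.9 and 16.2 FPKM. HFD+control-FMT thus lay above all of these libraries, and HFD+AOS-FMT overlapped HFD. The part of collection time in this difference was not tested. The list of 12 clock genes in phase with *Dbp* includes *Dbp* itself. Its median was −0.40 against HFD+control-FMT and 0.15 against control, or 0.04 without control replicate 1.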

How the data were processed

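Spleen RNA of 18 ICR mouse libraries, 3 in each of 6 groups, was sequenced on Illumina libraries made from 1 ug of total RNA, per the labels' protocols. The submitters' processing notes name Bowtie 0.12.2 and mm10. The authors deposited 1 table of 19326 rows whose unit was read from the values as FPKM: once multiplied by gene length (known for 97.1% of rows), the library totals had a coefficient of variation of 1.00%, against 7.55% for plain totals. RPKM would look the same. The counting program is not given in the sources used here, counts could not be recovered, and depth is unknown.

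The 12969 genes that averaged 1 FPKM or more in some group entered the fit as log2(FPKM + 1), which understates differences of low genes, by limma 3.58.1 (trend and robust variance; R 4.3.3) in 1 model of the 18 libraries (residual degrees of freedom, 12). Benjamini-Hochberg adjusted p-values were called at 0.05 and counted among the 12721 members. The haemoglobin share was tested by exact permutation. The fit was tested on simulated data.

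Where under 3 genes passed in a direction, the named genes were the 5 with the smallest p in it, with a higher mean of at least 2 FPKM and no provisional symbol, plus the 2 with the smallest p of each list in which at least 50% of members did not overlap; 2 genes so chosen are not reported here. Other list members and genes were given as examples after their values were seen. Members and the 50 lists were chosen with earlier results of these data known, and the kidney list after seeing the data. Gene positions are from GENCODE vM21 (GRCm38, that is mm10).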

Additional observations from a re-analysis of the deposited data

How the results depend on the processing

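The count of 0 genes for HFD+AOS-FMT against control stayed 0 with pseudocounts of 0.1 and 0.5, with no filter or a mean of 5 FPKM, with a filter on the 2 groups, with scaling by median ratios or quantiles, with haemoglobin left out and in a fit to the 6 libraries alone. Leaving out single libraries of any group gave 0 to 579 genes, 0 to 283 higher and 0 to 296 lower; the largest counts came without control replicate 3, 2 genes (*Tspan10* and *Kap*) were called without HFD replicate 3, and all other omissions gave 0. Without control replicate 3, 14 of the 18 named genes passed, while *Ctla4*, *Ikzf2*, *H2-Q4* and *H2-Q7* did not. Without HFD replicate 3, *Tspan10* passed (limma adjusted p = 0.0421). No named gene passed under another of the settings listed above, and none changed direction under any of them. Settings for the named genes that leave out libraries of other groups, and those for *Kap* and *Dbp*, were chosen after seeing the data. Scaling by median ratios moved the median of all members by −0.04 and left 46.5% of them above 0. Ribosomal protein genes, with a median of 0.06, were at −0.01 under quantile scaling.

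Against HFD, single omissions gave 0 to 39 genes (39 without HFD replicate 1), and the fit to 6 libraries gave 1. Against HFD+control-FMT, omissions gave 1 to 2 genes and the fit to 6 libraries gave 4. The haemoglobin difference of −3.56 percentage points ran from −6.62 to −0.21 over single omissions.

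Replicate numbers were used as a block although residuals of same-numbered HFD+AOS-FMT and control libraries correlated at 0.06, 0.20 and 0.11, so that not every pair was above 0.1 and the numbers were not taken as a pairing; all 6 libraries did correlate best with their own number. With the replicate block 0 genes were called against control and 0 against HFD. Against HFD+control-FMT, where residuals of same-numbered libraries correlated at 0.51, 0.39 and −0.11, the replicate block gave 0 genes in 6 libraries and 2 in 18. *Dbp* was then at an adjusted p of 0.171 in 6 libraries and 0.0104 in 18 (limma), with the same log2 difference of −1.51, and it passed under its other settings. Depth is unknown, so no counting error could be attached to single values.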
